A study of Mus musculus with 21 samples.

Results

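The genes described here are ATF4 and the enzymes, transporters and regulators tied to amino acid supply, 35 of the 52636 genes in the count table. They were taken by symbol and are the integrated stress response regulators (10 genes), 3 genes for secreted factors and a receptor, 3 asparagine, aspartate and alanine enzymes, 8 serine, glycine and one-carbon enzymes, 2 proline enzymes, 2 transsulfuration enzymes and 7 amino acid transporters. The study stimulated mouse fibroblasts in vitro with cytokines and sequenced total RNA, and the labels describe the cells as Ly6C+ and Sca-1+. The 21 libraries fall into 7 groups of 3: DMSO (the solvent), CHIR, TGFb1, TGFb1 + DMSO, TGFb1 + CHIR, TGFb1 + IL1b and TGFb1 + TNF. CHIR is the usual short name of an inhibitor of the kinase GSK3, TGFb1 is a cytokine that drives matrix production by fibroblasts, and IL1b and TNF are inflammatory cytokines. No group received IL1b or TNF without TGFb1, so their values are changes on top of TGFb1. The sources used here do not give doses, times, strain or age, or whether the 3 libraries of a group came from separate cultures, so p-values measure only the spread between these libraries.

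ATF4 is a transcription factor whose protein is made in larger amounts when the translation factor eIF2 is phosphorylated by one of its stress kinases, as in amino acid shortage or endoplasmic reticulum stress, and also downstream of mTORC1. It pairs with C/EBP proteins on a composite element in the promoters of genes for amino acid enzymes and transporters. In fibroblasts the pathway is known for supplying glycine and proline, which make up much of collagen. Only RNA was measured here, so neither ATF4 protein nor eIF2 phosphorylation enters any value.

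The composite element was searched for as TGATGNAA on both strands (reverse complement TTNCATCA), in the 250 bases before and 50 after each RefSeq transcription start (build GRCm38.p6). The table held 35 promoters of 30 of the genes, and 9 of the 30 (30.0%) carried a match, against 1219 of 27025 genes in the table (4.51%). Counted by promoter, the shares were 9 of 35 (25.7%) and 1304 of 32851 (3.97%). Many of these genes are known as ATF4 targets, so the share describes the list. The matches are shown because ATF4 and its C/EBP partners are known to bind this element; a match is a string of letters, and binding was not measured. They are written 5′ to 3′ on the gene's strand, with the matching 8 bases in capitals.
Asns, chr6:7693214-7693243 (minus strand): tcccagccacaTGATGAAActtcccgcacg
Chac1, chr2:119351038-119351067 (plus strand): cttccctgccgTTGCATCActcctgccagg
Got1, chr19:43524689-43524718 (minus strand): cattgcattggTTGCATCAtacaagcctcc
Nupr1, chr7:126625562-126625591 (minus strand): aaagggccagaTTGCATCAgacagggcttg
Pycr1, chr11:120643833-120643862 (minus strand): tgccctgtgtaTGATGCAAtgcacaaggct
Slc1a4, chr11:20332699-20332728 (minus strand): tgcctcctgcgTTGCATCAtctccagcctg
Slc7a11, chr3:50443661-50443690 (minus strand): tctcatgtggcTGATGCAAacctggagaat
Slc7a11, chr3:50443642-50443671 (minus strand): acctggagaatTTGCATCAtcatgcagccc
Trib3, chr2:152344028-152344057 (minus strand): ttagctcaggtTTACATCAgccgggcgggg
Vldlr, chr19:27216809-27216838 (plus strand): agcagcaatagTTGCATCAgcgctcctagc

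Relative to the RefSeq start, the match lay at bases -23 to -16 in Asns and at 15 to 22 in Trib3, and Slc7a11 had a pair, at -66 to -59 and -47 to -40. The 9 genes with a match had a median log2 fold change of 1.11 with TNF on TGFb1 and the 21 without one 1.05. With TGFb1 + DMSO against DMSO the medians were 1.23 and 0.57, and with IL1b on TGFb1 they were 0.77 and 0.75. For the effect of CHIR with TGFb1 less that without, the order turned, at -0.03 and 0.54. These medians were not tested.

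Library totals ran from 19796379 to 29276382 counts, and all 35 genes passed the filter on low counts. The hematopoietic marker Ptprc and the T cell marker Cd3e had 0 counts in every library, and the group means of the summed 6 immune markers ran from 2.03 to 6.27 CPM (counts relative to the TMM-scaled library size). The summed epithelial markers stayed at or below 0.459 CPM. The summed mesothelial markers ran from 9.17 to 27.7 CPM, nearly all from Wt1, and the mural ones from 515 CPM in TGFb1 + TNF (Pdgfrb 236 and Cspg4 272 CPM) to 1251 CPM in CHIR (Pdgfrb 1227 CPM). The summed 6 fibroblast markers ran from 18990 CPM in TGFb1 + TNF to 53880 CPM in TGFb1 + CHIR, and their part in the results was not tested. Most of each sum was Col1a1 and Col1a2, at 34040 and 19230 CPM in TGFb1 + CHIR. Dcn was lowest in that group, at 91.8 CPM, and highest in CHIR, at 2982 CPM. Pdgfra ran from 76.8 CPM in TGFb1 + TNF to 1485 CPM in DMSO. In such bulk samples, fewer cells of a type and less RNA per cell cannot be told apart. The labelled surface proteins were present as RNA in DMSO (Ly6a, which encodes Sca-1, 142 CPM, and Ly6c1 49.8 CPM) and were lowest in TGFb1 + CHIR (7.83 and 0.703 CPM). Phgdh shares 47.8% of its 50-base stretches with other annotated genes, Aldh1l2 13.6% and Psph 8.82%, so the counts of these genes are less certain; the other 32 share at most 4.38%.

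Across the 7 groups, 24 of the 35 genes had their highest mean level in TGFb1 + TNF and 5 in TGFb1 + IL1b. The lowest mean was in CHIR for 17 and in DMSO for 11. These counts were not set against all genes tested, so they describe only the 35. Cth, the enzyme that releases cysteine in transsulfuration, spanned the widest range, from 5.36 ± 0.342 CPM in CHIR to 339 ± 4.53 CPM in TGFb1 + TNF (SD, n = 3), a ratio of 63.3. Gdf15, a secreted stress factor, spanned 23.1-fold and Ppp1r15a, the eIF2 phosphatase subunit GADD34, 12.9-fold. The smallest ranges were those of Atf5, an ATF4-related factor, at 1.46-fold, and of the neutral amino acid carrier Slc1a5 at 1.47-fold. Per kilobase of exon, the highest levels over all libraries were those of Atf4 at 343 CPM per kb, Asns at 179 and Atf5 at 178, and the lowest was Cbs at 0.211.

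**Figure D1:**
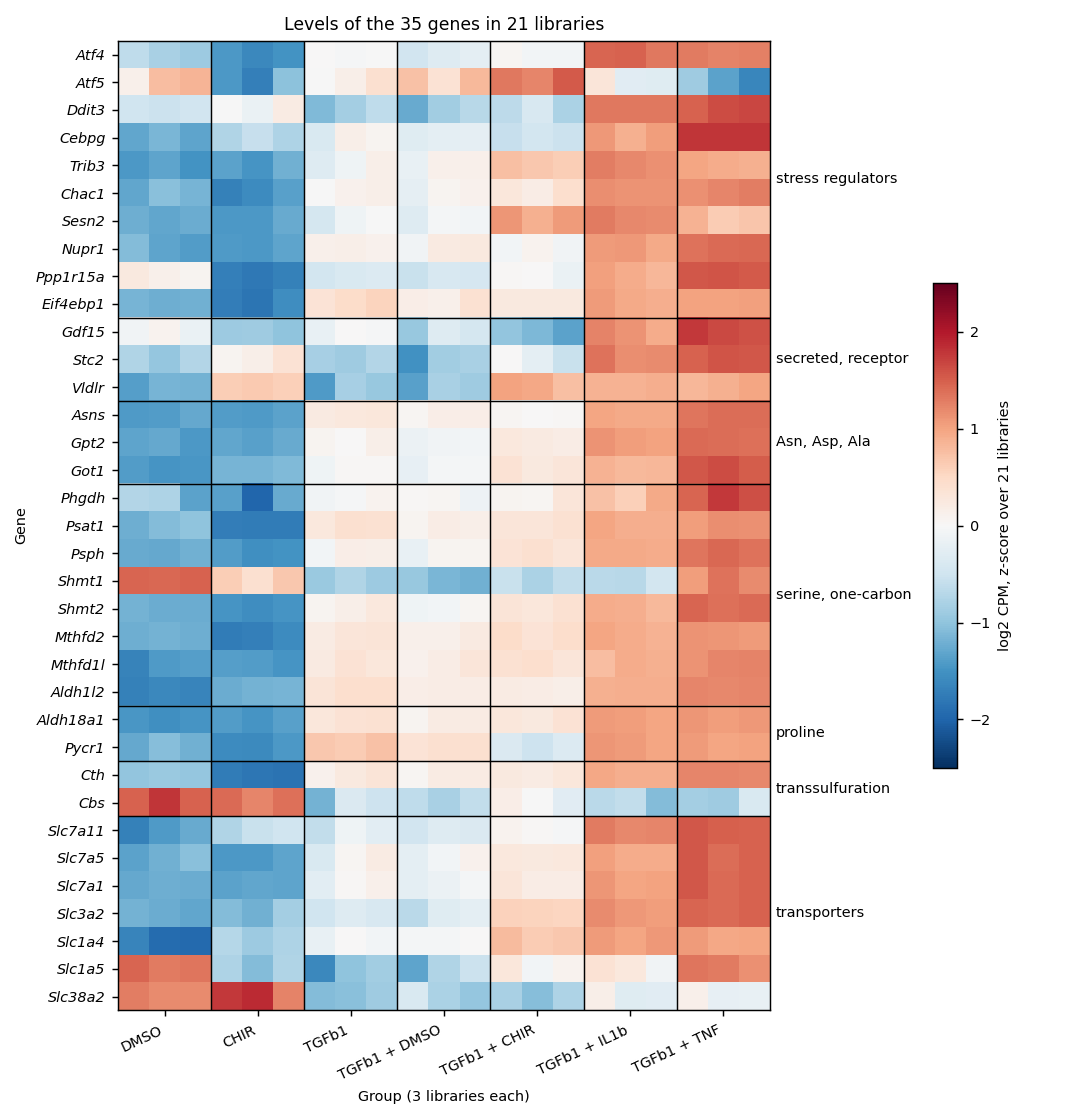
Level of each of the 35 genes (rows, grouped by role) in each of the 21 libraries (columns, 3 per group), as log2 CPM scaled to a z-score over the libraries. Most rows are lowest in DMSO and CHIR, intermediate in the TGFb1, TGFb1 + DMSO and TGFb1 + CHIR libraries and highest with IL1b or TNF, while Shmt1, Cbs, Slc1a5 and Slc38a2 are high in DMSO.

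Atf4, Ppp1r15a, Gdf15 and Cth are protein-coding genes of GRCm38 (GENCODE M21). Atf4 is ENSMUSG00000042406, chr15:80255184-80257541, plus strand, and Ppp1r15a is ENSMUSG00000040435, chr7:45522916-45526268, minus strand. Gdf15 is ENSMUSG00000038508, chr8:70629393-70632456, minus strand, and Cth is ENSMUSG00000028179, chr3:157894248-157925077, minus strand.

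Atf4 itself stood at 553, 515 and 492 CPM in DMSO, at 389, 359 and 380.5 in CHIR, and at 738, 726 and 734 in TGFb1. The libraries of TGFb1 + DMSO were at 593, 641 and 662 CPM, and those of TGFb1 + CHIR at 751, 717 and 714. With IL1b on TGFb1 the values were 1407, 1420 and 1327, and with TNF on TGFb1 1313, 1277 and 1294. The CHIR libraries were below all others, and all 6 libraries with IL1b or TNF were above all others. The ranges of TGFb1 and TGFb1 + CHIR overlapped, while the lowest IL1b library was just above the highest TNF library.

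**Figure D2:**
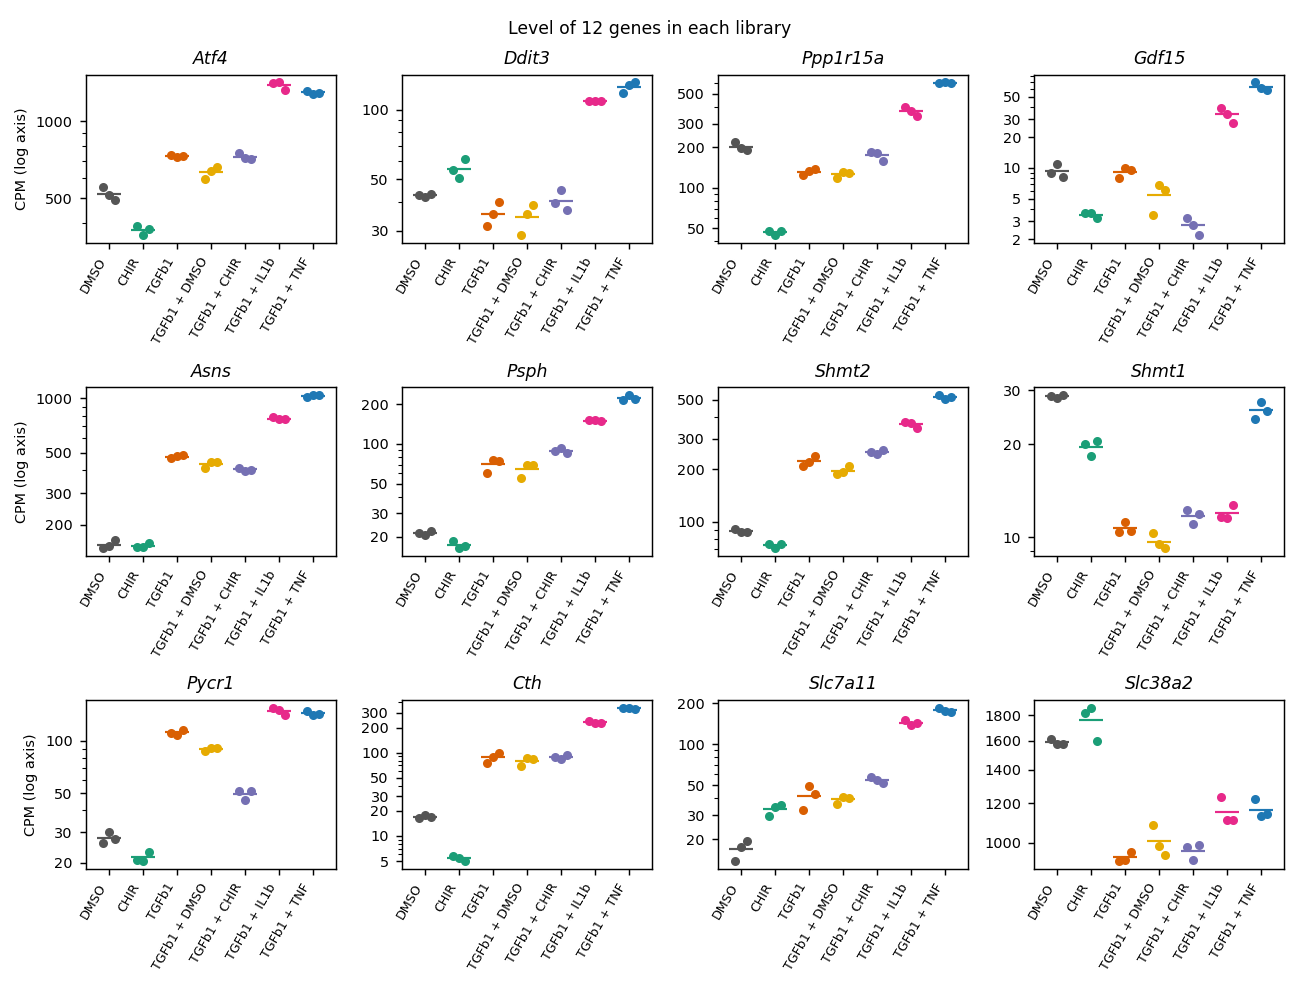
CPM (log axis) of 12 of the 35 genes in each library, 3 points per group, with a line at the group mean. Ppp1r15a, Gdf15, Ddit3 and Slc7a11 are far higher in both groups with IL1b or TNF than in any other, and Cth is lowest in CHIR, at 5.36 CPM on average.

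TGFb1 + DMSO was compared with DMSO to ask what TGFb1 does within the solvent. Of the 35 genes, 25 rose, 7 fell and 3 did not pass (edgeR quasi-likelihood F-test, Benjamini-Hochberg adjusted p under 0.05). In this comparison 62% of all 16197 genes tested passed, 30.7% as higher and 31.3% as lower. The median log2 fold change of the 35 was 0.94, against -0.02 over all genes tested. At least 2-fold higher were 17 of the 35, against 8.07% of all genes. The same comparison with TGFb1 in place of TGFb1 + DMSO gave 25 higher and 6 lower, with a median of 1.10, where 63.5% of all genes tested passed, 31% as higher and 32.5% as lower.

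The enzymes rose together, apart from one in each of the serine and transsulfuration groups. All 3 asparagine, aspartate and alanine enzymes rose, as did 7 of 8 serine, glycine and one-carbon enzymes and both proline enzymes. Cth was at 16.3, 17.8 and 17.1 CPM in DMSO and 68.8, 85.7 and 84.5 in TGFb1 + DMSO, without overlap, a log2 fold change of 2.22 ± 0.092 (SE; adjusted p 5.11e-16). Psph, which makes the last step to serine, went from 21.3, 20.8 and 22.3 CPM to 55.3, 69.8 and 69.4, a log2 fold change of 1.60 ± 0.078. Mthfd2, the mitochondrial folate enzyme, went from 68.2, 70.0 and 68.8 to 201, 202 and 217 CPM, a log2 fold change of 1.58 ± 0.049. No DMSO library reached a TGFb1 + DMSO library in these genes. Aldh1l2, another mitochondrial folate enzyme, rose by 1.43 ± 0.036, and Aldh18a1, which makes the proline precursor, by 1.32 ± 0.041.

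Against that direction, the cytosolic serine hydroxymethyltransferase Shmt1 fell, from 28.7, 28.4 and 28.9 CPM in DMSO to 10.3, 9.51 and 9.22 in TGFb1 + DMSO (log2 fold change -1.57 ± 0.092, adjusted p 5.23e-21), while its mitochondrial counterpart Shmt2 rose by 1.15 ± 0.047. Cbs, which acts just before Cth, fell from 4.49, 6.31 and 4.50 CPM to 0.349, 0.273 and 0.366 (log2 fold change -3.94 ± 0.34, adjusted p 1.12e-14). The 3 TGFb1 + DMSO libraries held 27 Cbs counts in all, against 431 in the 3 DMSO libraries, and the groups did not overlap for either gene. Cth and Cbs, neighbours in one pathway, thus moved in opposite directions.

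Among the regulators, 7 of 10 rose and 2 fell. Atf4 rose by 0.28 ± 0.041 on the log2 scale (adjusted p 5.84e-08), and by 0.49 ± 0.041 where TGFb1 was compared with DMSO, less than Chac1, a glutathione-degrading enzyme, at 1.44 ± 0.11, and Nupr1, a stress-induced chromatin protein, at 1.33 ± 0.07. Ppp1r15a fell from 218, 199 and 189.7 CPM to 117, 131 and 129, by 0.69 ± 0.056, and no library of one group reached the other. Ddit3, which encodes the stress factor CHOP, had a log2 fold change of -0.32 ± 0.09 (adjusted p 0.00346); without TGFb1 + DMSO replicate 1 it was -0.20. Gdf15 was at 8.98, 10.9 and 8.19 CPM in DMSO and 3.42, 6.88 and 6.04 in TGFb1 + DMSO (log2 fold change -0.78 ± 0.19), but at 7.91, 9.96 and 9.48 in TGFb1, where the change against DMSO was -0.04 (adjusted p 0.847). Of the 7 transporters 5 rose and 2 fell, the latter being Slc38a2 (-0.66 ± 0.051) and Slc1a5 (-0.49 ± 0.045), which both carry neutral amino acids such as glutamine.

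With IL1b on TGFb1, 32 of the 35 genes rose, 0 fell and 3 did not pass, against TGFb1. Over all genes tested 34.6% passed, 17.2% as higher and 17.4% as lower (edgeR, as above). The median of the 35 was 0.75, against 0.002 over all genes tested, and 10 of the 35 were at least 2-fold higher, against 3.32%. The 3 that did not pass were Atf5 (-0.05), Shmt1 (0.15) and Cbs (-0.28).

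TNF on TGFb1 gave 33 higher, 1 lower and 1 that did not pass, where 56.6% of all genes tested passed, 27.7% as higher and 28.8% as lower. The median of the 35 was 1.05, against -0.004, and 18 were at least 2-fold higher, against 6.7% of all genes. The gene that fell was Atf5 (-0.29 ± 0.045, adjusted p 1.52e-07), and Cbs did not pass (-0.09). The summed 5 endothelial markers were at 12.8 CPM with TNF and 4.52 in TGFb1. Kdr was at 6.32 and 3.19 CPM, Cdh5 at 4.54 and 0.265 CPM and Vwf at 1.81 and 0.527 CPM. Pecam1 went the other way, at 0.160 and 0.548 CPM, and Tie1 was at 0 in both. The part of these markers in the TNF changes was not tested. With IL1b the sum was 4.69 CPM. Both cytokine comparisons share the TGFb1 libraries, so they are not independent of each other.

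Of the 35 genes, Gdf15 had the largest log2 fold change in both comparisons. It was at 7.91, 9.96 and 9.48 CPM in TGFb1, 39.2, 34.0 and 27.8 with IL1b and 69.7, 61.6 and 57.8 with TNF. The 3 groups did not overlap, and the log2 fold changes were 1.89 ± 0.17 with IL1b and 2.79 ± 0.16 with TNF (adjusted p 5.96e-09 and 1.85e-12), the latter a 6.91-fold rise. Ppp1r15a was at 125, 134 and 137 CPM in TGFb1, 397, 371 and 343 with IL1b and 599.8, 609.9 and 597 with TNF, again without overlap (log2 fold changes 1.49 ± 0.056 and 2.19 ± 0.057). Stc2, a secreted glycoprotein, rose by 1.85 ± 0.11 and 2.11 ± 0.11. Ddit3 was at 31.3, 35.6 and 39.8 CPM in TGFb1, 109.8, 109 and 109 with IL1b and 118, 129 and 132 with TNF, and its log2 fold changes were 1.63 ± 0.088 and 1.83 ± 0.088. The 3 genes that had fallen with TGFb1 + DMSO among regulators and secreted factors, Ppp1r15a, Ddit3 and Gdf15, were among those with the largest rises here. The rises are measured from TGFb1, and in that group Gdf15 was not called lower than in DMSO (log2 fold change -0.04). Atf4 rose by 0.92 ± 0.041 with IL1b (adjusted p 1.77e-24) and by 0.82 ± 0.041 with TNF (adjusted p 1.77e-23).

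All 7 transporters rose in both comparisons. Slc7a11, which exchanges cystine for glutamate, was at 32.8, 49.1 and 43.4 CPM in TGFb1, 150.5, 139 and 142 with IL1b and 184, 175 and 171 with TNF (log2 fold changes 1.78 ± 0.12 and 2.08 ± 0.12). The TGFb1 libraries were below all 6 others. Slc7a1, a carrier of arginine and lysine, rose by 1.01 ± 0.062 and 1.43 ± 0.063.

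Among the enzymes, Cth was at 74.6, 89.4 and 99.4 CPM in TGFb1, 242, 224 and 225 with IL1b and 339.5, 344 and 335 with TNF (log2 fold changes 1.40 ± 0.078 and 1.95 ± 0.079). Its 3 groups did not overlap either. Psph rose by 1.10 ± 0.069 and 1.67 ± 0.069, and the alanine aminotransferase Gpt2 by 0.99 ± 0.044 and 1.33 ± 0.044. All 8 serine, glycine and one-carbon enzymes rose with TNF, and 7 with IL1b, Shmt1 being the eighth. The proline enzymes Aldh18a1 and Pycr1 rose in both comparisons (Aldh18a1 0.55 ± 0.039 and 0.59 ± 0.039, Pycr1 0.41 ± 0.054 and 0.37 ± 0.054). Against TGFb1 + DMSO in place of TGFb1, Pycr1 rose by 0.73 with IL1b and 0.69 with TNF.

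**Figure D3:**
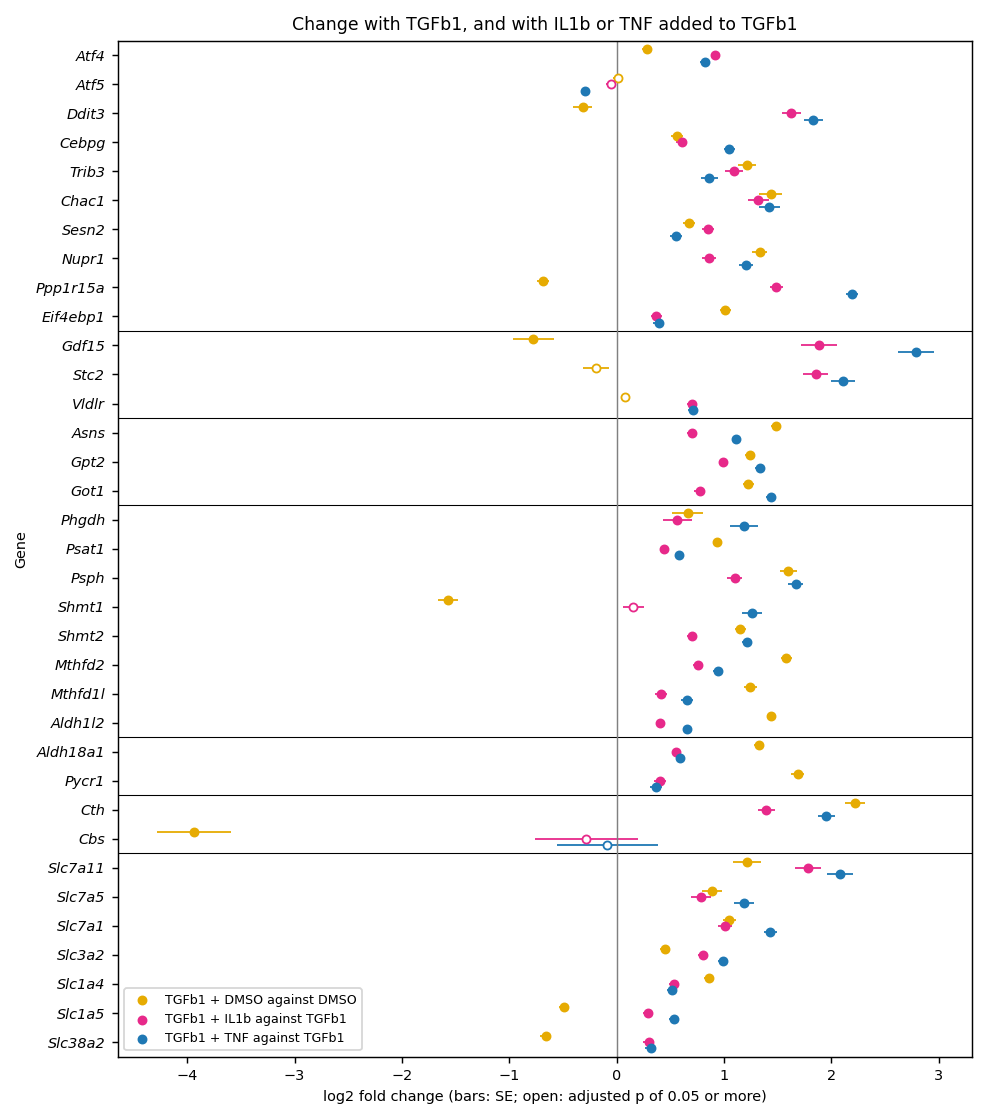
Log2 fold change with its SE for each of the 35 genes (rows, grouped by role) with TGFb1 + DMSO against DMSO, and with IL1b or TNF added to TGFb1. Filled points have an adjusted p under 0.05. The stress regulators Ddit3 and Ppp1r15a and the secreted factor Gdf15 lie left of 0 in the first comparison and right of 1 in both others.

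IL1b and TNF were compared directly on TGFb1. IL1b gave lower levels for 23 of the 35 genes and higher ones for 4, with 8 that did not pass, where 47.6% of all genes tested passed, 24.7% as higher with IL1b and 22.8% as lower. The median was -0.24, against 0.01 over all genes. The largest difference was in Shmt1, at 10.4, 11.2 and 10.5 CPM in TGFb1, 11.6, 11.5 and 12.7 with IL1b and 24.1, 27.6 and 25.6 with TNF. The TNF libraries were above all 6 others, and the log2 difference of IL1b from TNF was -1.11 ± 0.09 (adjusted p 4.1e-15). In DMSO, Shmt1 was at 28.7, 28.4 and 28.9 CPM, just above the TNF libraries. All 8 serine, glycine and one-carbon enzymes were lower with IL1b than with TNF, including Phgdh, which opens the serine pathway (-0.62 ± 0.13), and Shmt2 (-0.51 ± 0.045). So were all 3 asparagine, aspartate and alanine enzymes, with Got1, a transaminase of aspartate, at -0.67 ± 0.047.

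All 4 genes that were higher with IL1b were regulators. They were Sesn2, a stress-induced inhibitor of mTORC1 (0.30 ± 0.055, adjusted p 8.64e-06), Atf5 (0.24 ± 0.045), Trib3, a pseudokinase that binds ATF4 (0.23 ± 0.078, adjusted p 0.0183), and Atf4 (0.10 ± 0.041, adjusted p 0.0475). The calls on Trib3 and Atf4 were lost under 3 and 8 of the alternatives run, respectively, so no firm order of IL1b and TNF follows for them. Proline enzymes did not pass (Aldh18a1 -0.04 and Pycr1 0.04).

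CHIR was added without TGFb1 and with it. Without TGFb1, 9 of the 35 genes rose, 15 fell and 11 did not pass, where 44.8% of all genes tested passed, 22.1% as higher and 22.7% as lower. The median of the 35 was -0.13, against -0.01 over all genes tested. Ppp1r15a fell from 218, 199 and 189.7 CPM in DMSO to 47.4, 44.3 and 47.9 in CHIR (log2 fold change -2.12 ± 0.061, adjusted p 4.22e-26). Cth fell from 16.3, 17.8 and 17.1 to 5.70, 5.36 and 5.02 CPM (log2 fold change -1.67 ± 0.13), and Gdf15 from 8.98, 10.9 and 8.19 to 3.58, 3.65 and 3.21 (-1.43 ± 0.21). The groups did not overlap for any of these genes. Slc7a11 moved the other way, from 13.9, 17.5 and 19.6 to 29.5, 34.6 and 36.0 CPM (0.98 ± 0.14), as did Stc2 (0.92 ± 0.12) and the lipoprotein receptor Vldlr (0.67 ± 0.046). Atf4 fell by 0.47 ± 0.042 (adjusted p 8.72e-14). Mitochondrially encoded genes held 1.04% of the counts in CHIR and 0.572% in DMSO. Leaving these genes out removes few counts, so that setting does not address the difference in share. The part of this difference in the CHIR changes was not tested.

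On TGFb1, CHIR gave the opposite balance. TGFb1 + CHIR against TGFb1 + DMSO had 24 of the 35 higher, 4 lower and 7 that did not pass, where 43.3% of all genes tested passed, 20.8% as higher and 22.5% as lower. The changes were small, with a median of 0.25 against 0 over all genes. Sesn2 rose by 0.70 ± 0.056, Stc2 by 0.72 ± 0.12, Vldlr by 0.69 ± 0.046 and Slc3a2, the heavy chain that partners several carriers, by 0.52 ± 0.046. Cbs had a log2 fold change of 1.25 ± 0.41 on 53 and 27 counts per group (adjusted p 0.011), and the call was lost without TGFb1 + CHIR replicate 1 (1.03, adjusted p 0.0839). Pycr1, which makes proline, fell from 87.1, 91.0 and 90.5 CPM in TGFb1 + DMSO to 51.2, 45.7 and 51.8 in TGFb1 + CHIR (log2 fold change -0.85 ± 0.058, adjusted p 5.59e-18), and Gdf15 fell by 0.99 ± 0.24, or by 1.72 against TGFb1. The Pycr1 groups did not overlap. Atf4 was called higher (0.20 ± 0.041, adjusted p 5.26e-05), but against TGFb1 without the solvent it was at -0.009 (adjusted p 0.886). Against that control the calls on Psat1, Aldh18a1, Ddit3, Shmt1 and Slc7a5 were lost too. Aldh1l2 (-0.165) and Eif4ebp1 (-0.15), which had not passed, were called lower there. The summed 5 endothelial markers were at 23.2 CPM in TGFb1 + CHIR, of which Kdr made 20.4 CPM, against 5.70 CPM in TGFb1 + DMSO; their part in these changes was not tested.

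The difference between the CHIR effects with and without TGFb1 passed for 25 of the 35 genes, 20 of them higher with TGFb1 and 5 lower, where 41.2% of all genes tested passed, 21% as higher and 20.3% as lower. The median was 0.41, against 0.03. Ppp1r15a had the largest difference, 2.59 ± 0.083 (adjusted p 1.5e-24), and it stood at 117, 131 and 129 CPM in TGFb1 + DMSO and 183, 179.9 and 158 in TGFb1 + CHIR. Cth followed at 1.82 ± 0.15, with 68.8, 85.7 and 84.5 CPM in TGFb1 + DMSO and 88.4, 84.0 and 93.6 in TGFb1 + CHIR, which overlapped. On TGFb1, the CHIR effect on Cth did not pass (0.15 ± 0.08). Of the 15 genes that fell with CHIR alone, 13 had a higher CHIR effect with TGFb1 in this test, and 10 were called higher with CHIR on TGFb1. Of all 3682 genes tested that fell with CHIR alone, 56.5% had such a higher effect and 17.8% were also called higher on TGFb1. Both the choice of these genes and the difference use the CHIR and DMSO libraries, so a low CHIR effect without TGFb1 by itself raises the difference. The 10 were Atf4, Atf5, Chac1, Ppp1r15a, Psat1, Psph, Shmt1, Shmt2, Mthfd2 and Slc1a5. With TGFb1 in place of TGFb1 + DMSO as the control, 7 of the 10 still met these conditions, Atf4, Psat1 and Shmt1 did not, and the difference passed for all 10. The call on Atf5 was also lost without TGFb1 + DMSO replicate 2 (0.12, adjusted p 0.0563). Pycr1 fell in both settings, by more with TGFb1 (difference -0.48 ± 0.088, or -0.80 with TGFb1 as the control).

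**Figure D4:**
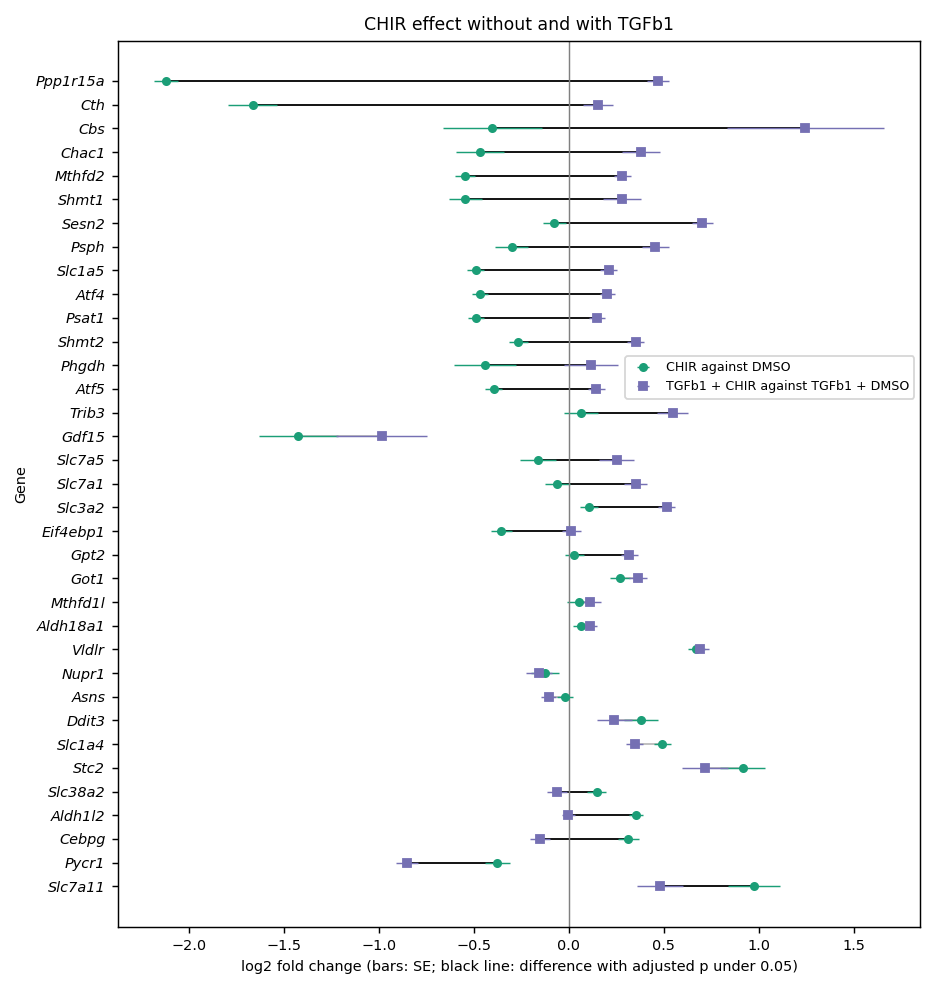
Log2 fold change with its SE for CHIR against DMSO (circles) and TGFb1 + CHIR against TGFb1 + DMSO (squares) for each of the 35 genes, ordered by the difference between them, with a black line where that difference had an adjusted p under 0.05. Ppp1r15a and Cth have the widest gaps, 2.59 and 1.82, and Pycr1 lies left of 0 in both.

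In CHIR-treated cells, TGFb1 + CHIR against CHIR gave 28 of the 35 higher and 5 lower, where 66.2% of all genes tested passed, 33.8% as higher and 32.3% as lower, with a median of 1.30 against 0.01. Cth rose 16.5-fold (4.04 ± 0.11 on the log2 scale), Mthfd2 by 2.41 ± 0.052, Psph by 2.36 ± 0.081 and Chac1 by 2.29 ± 0.12. Ppp1r15a rose here by 1.90 ± 0.061, whereas it fell with TGFb1 in the solvent, and the test of that difference is the one given above. Atf4 rose by 0.95 ± 0.042 (adjusted p 3.02e-26).

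The solvent was compared within TGFb1. TGFb1 + DMSO against TGFb1 gave 0 of the 35 higher and 10 lower, where 6.13% of all genes tested passed, 2.33% as higher and 3.8% as lower. The largest were Gdf15 (-0.73 ± 0.19, adjusted p 0.0254, and 0.111 without TGFb1 replicate 2) and Pycr1 (-0.32 ± 0.055), which was at 111, 108 and 116 CPM in TGFb1 and 87.1, 91.0 and 90.5 in TGFb1 + DMSO without overlap. Atf4 was lower by 0.21 ± 0.041 (adjusted p 0.000459). The count fell to 5 without TGFb1 replicate 2, to 4 without TGFb1 replicate 3 and to 4 without TGFb1 + DMSO replicate 1.

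Genes of the pathway outside the 35 were read from 6 lists, whose counts are to be read against the shares of all genes tested that passed as higher and lower: 30.7% and 31.3% with TGFb1 + DMSO against DMSO, 17.2% and 17.4% with IL1b, and 27.7% and 28.8% with TNF. Of 19 aminoacyl-tRNA synthetases, the enzymes that load amino acids onto tRNAs, 19 rose and 0 fell with TGFb1 + DMSO against DMSO (median 0.80), 14 rose and 1 fell with IL1b (0.44), and 17 rose and 0 fell with TNF (0.86). All but 1 were lower with IL1b than with TNF (18 of 19), where 22.8% of all genes tested were lower and 24.7% higher. The largest rises were those of Gars, for glycine, with TGFb1 + DMSO (1.18 ± 0.042) and of Wars, for tryptophan, with IL1b (0.78 ± 0.077) and TNF (1.59 ± 0.077). Of 14 genes for eIF2 kinases and eIF2 or eIF2B subunits, 11 rose and 1 fell with TGFb1 + DMSO, 3 rose and 2 fell with IL1b, and 9 rose and 3 fell with TNF. The IL1b count of this list is near the share of all genes. The kinase gene Eif2ak3, which encodes PERK, fell with IL1b (-0.42 ± 0.061) and with TNF (-0.70 ± 0.062).

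Of 11 other ATF4 targets, 9 rose and 1 fell with TGFb1 + DMSO, 11 rose with IL1b and 10 with TNF, with 0 lower in both. Fgf21, a secreted metabolic hormone, had group means of 0.201 CPM in DMSO, 6.41 in TGFb1 + DMSO, 8.12 in TGFb1, 35.1 with IL1b and 71.9 with TNF. Atf3, a stress-induced factor, fell with TGFb1 + DMSO (-0.71 ± 0.13) and rose with IL1b (2.34 ± 0.13) and TNF (3.33 ± 0.13). Ppp1r15a, Ddit3 and Gdf15 had the same pattern of calls, but the fall of Gdf15 was not seen in TGFb1 without the solvent. Of 14 other folate, glycine and methionine cycle genes, 6 rose and 5 fell with TGFb1 + DMSO, which is near the shares of all genes in each direction. The glycine decarboxylase gene Gldc, which breaks glycine down, fell from 55.5 CPM in DMSO to 1.58 (-5.13 ± 0.19). Of the same 14 genes, 3 rose and 1 fell with IL1b, and 10 rose and 1 fell with TNF (median 0.38). With TNF, 27.7% of all genes tested passed as higher and 28.8% as lower. Of 9 other proline and glutamate genes, 1 rose and 6 fell with TGFb1 + DMSO, among them Glul, which makes glutamine (-2.14 ± 0.073). Other amino acid transporters were split, 5 higher and 5 lower of 10 tested with TGFb1 + DMSO, with Slc7a3, a carrier of basic amino acids, at 2.44 ± 0.056.

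**Figure D5:**
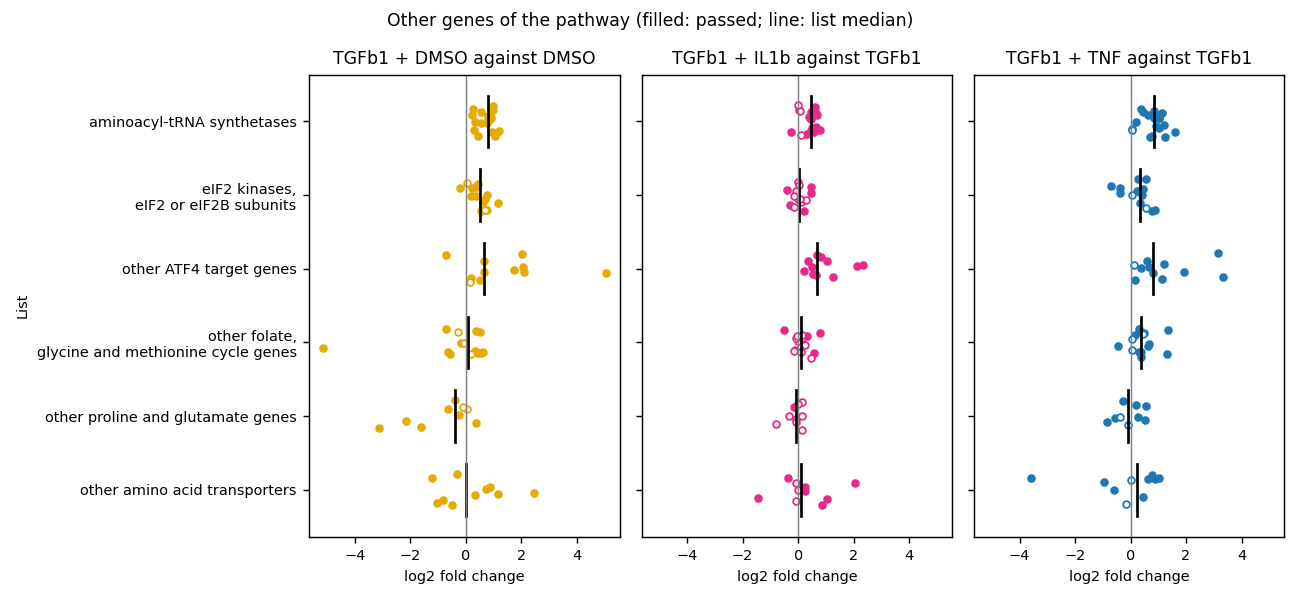
Log2 fold change of each gene of the 6 lists (rows; filled points passed the test, black line at the list median) with TGFb1 + DMSO against DMSO, IL1b on TGFb1 and TNF on TGFb1. All 19 synthetase genes lie right of 0 in the first panel, and the proline and glutamate list has its median left of 0 in every panel.

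Likeness to Atf4 was described by Pearson's r over the 7 group means of log2 CPM, with no test, since the groups share treatments. The highest values were those of Chac1 (0.97), of the carriers Slc7a5 and Slc7a1 (0.96 each), and of Nupr1, Gpt2 and Psph (0.95 each). The lowest were those of Atf5 (-0.06), Shmt1 (-0.14), Slc38a2 (-0.53) and Cbs (-0.77). Slc38a2 was at 1589 ± 21.9 CPM in DMSO, 935 ± 21.8 in TGFb1 and 1166 ± 51.5 in TGFb1 + TNF (SD, n = 3), so its DMSO level was the highest of these groups. Vldlr, at 0.42, rose with CHIR alone, where Atf4 fell, but Slc7a11 (0.89) and Cebpg (0.88) rose there too. Its mean levels in DMSO and TGFb1 + DMSO were close, at 230 and 243 CPM.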

How the data were processed

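RNA was extracted with Qiagen RNeasy and sequenced from libraries made with the Illumina TruSeq Stranded Total RNA kit, per the labels' protocols. The authors deposited raw counts per gene, and the sources used here name no aligner, counter, strand setting or filter; the builds GRCh38 and GRCm38 stand in the submitters' processing notes without roles. Symbols, positions and exon lengths came from GENCODE M21 (GRCm38), which holds 52489 of the 52636 gene IDs; 147 unnamed IDs hold 0.0074% of the counts. The 21 single-library tables equalled their columns. Without strand information, antisense overlaps cannot be separated. The longest were in Aldh1l2 (1056 bases of exon) and Psph (452). Shorter ones were in Shmt1 (184), Atf5 (164), Ddit3 (81), Shmt2 (32), Ppp1r15a (12) and Cebpg (4).

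Genes passing filterByExpr (16197) were fitted with edgeR 4.0.16 (R 4.3.3): TMM factors, 1 coefficient per group over all 21 libraries, robust quasi-likelihood F-tests and Benjamini-Hochberg adjustment over all genes tested, with a threshold of 0.05. Each group had 3 libraries, and the common biological coefficient of variation was 0.0582. SE is the size of the log2 fold change before edgeR's shrinkage, divided by the root of F. The log2 fold changes printed are those after it. The code was tested on simulated data. Alternatives were DESeq2 1.42.0, limma 3.58.1 voom, RLE factors, no filter, at least 1 CPM in 3 libraries, a table without mitochondrially encoded and rRNA genes, a fit of the compared groups alone, the other TGFb1 group, and leaving out each replicate.

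The 35 genes and the 6 lists were chosen with earlier results of these data known. By rule, Atf4 and up to 12 of the 35 with the largest changes that passed are named per comparison, and up to 2 genes at each end of each list; other genes named were chosen after their values were seen. An immune marker of the list is not reported here.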

Additional observations from a re-analysis of the deposited data

Results flagged for a closer look

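The CHIR effect differed between cells with and without TGFb1 in 25 of the 35 genes, by the edgeR test of the difference itself (adjusted p under 0.05). All values are the log2 effect of CHIR with TGFb1 less that without. Among the regulators the differences were Ppp1r15a 2.59, Chac1 0.85, Sesn2 0.78, Atf4 0.67, Atf5 0.54, Trib3 0.48 and Eif4ebp1 0.37. Among the enzymes they were Cth 1.82, Cbs 1.65, Shmt1 0.83, Mthfd2 0.83, Psph 0.76, Psat1 0.64, Shmt2 0.62, Phgdh 0.56 and Gpt2 0.29. The transporters stood at Slc1a5 0.7, Slc7a5 0.42, Slc7a1 0.41 and Slc3a2 0.41. Lower with TGFb1 were Slc7a11 -0.5, Pycr1 -0.48, Cebpg -0.47, Aldh1l2 -0.36 and Slc38a2 -0.21. Of these calls, those on Phgdh, Slc7a11, Slc38a2 and Slc7a5 were lost when single libraries were left out, and the call on Gpt2 was lost with TGFb1 in place of TGFb1 + DMSO (0.12, adjusted p 0.151). Groups of 3 libraries were too small to look for outlying libraries.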

How the results depend on the processing

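The count of the 35 genes called stayed within 1.5 times its value in all 9 comparisons under every alternative run, other than the solvent comparison with single libraries left out. There it ran from 4 to 14 around 10. In the other comparisons the leave-one-out counts ran from 22 to 24 (CHIR against DMSO), 23 to 24 (the difference of CHIR effects), 32 to 33 (TGFb1 + CHIR against CHIR), 22 to 26 (TGFb1 + CHIR against TGFb1 + DMSO), 32 to 33 (TGFb1 + DMSO against DMSO), 32 to 32 (IL1b), 34 to 34 (TNF) and 22 to 26 (IL1b against TNF). Of 245 calls on single genes, 29 were lost under some alternative that kept the direction of the change. None of the 29 was in the IL1b or TNF comparison against TGFb1. The calls on Atf4 and Psat1 in TGFb1 + CHIR against TGFb1 + DMSO were also lost, with a turned direction, and are not in the 29. With TGFb1 in place of TGFb1 + DMSO as the control for TGFb1 + CHIR, the direction turned for Atf4 (-0.009, adjusted p 0.886), Psat1 (-0.015, adjusted p 0.803), Aldh18a1 (-0.038, adjusted p 0.468) and Eif4ebp1 (-0.15, adjusted p 0.0123); the cause was not tested. No paired analysis was possible because the labels carry no replicate numbers. Those used here follow the order of the samples within each group and pair nothing between groups. Counting error limits Cbs most, with 24 to 53 counts over the 3 libraries of each group with TGFb1.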
